A study of Mus musculus with 4 samples.

Results

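The LIM homeobox and LIM-only transcription genes and their Ldb partners were followed in the autopod, the end of the limb bud that becomes hand or foot, of mouse embryos at E11.25, around the middle of gestation. The members are 9 genes, Lhx2, Lhx9, Lmx1b, Isl1, Lmo1, Lmo2, Lmo4, Ldb1 and Ldb2, listed by family, with earlier results of these data known. They carry 16 probe sets that the platform annotation assigns to a single symbol, out of 18194 genes with 34958 such probe sets. Each probe set is a group of short probes on an Affymetrix array, read out as 1 signal value. The mutant group, Hox13dKO, had 2 samples, from embryos that lack both copies of Hoxa13 through a null allele and both copies of Hoxd11, Hoxd12 and Hoxd13 through a single deletion. The control group had 2 samples from wild-type embryos. All 4 samples were labelled C57BL/6, and each was hybridised to 1 array. Fore- and hindlimb buds were both used, cut to the domain that expresses Hoxd13, so a change in only one limb would be diluted. How many embryos make up a sample is not stated in the labels. The p-values rest on the spread between these samples together with a prior that the limma method draws from probe sets of like signal.

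LIM homeodomain proteins bind DNA through a homeodomain and recruit partners through a pair of zinc-binding LIM domains. Ldb1 and Ldb2 are adaptors that dimerise and hold on to the LIM domains, which joins LIM proteins into larger complexes. LIM-only proteins have LIM domains without a homeodomain, so they can occupy Ldb adaptors or link them to other DNA-binding proteins. In the limb bud Lhx2, Lhx9 and Lmx1b support outgrowth with overlapping roles, Lmx1b specifies dorsal fate, and Isl1 acts early in the hindlimb field.

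Among these genes Lmo2 had the clearest difference, with less transcript in Hox13dKO, and Ldb2 read higher in Hox13dKO by every one of its probe sets without passing the test. Lhx2 and Lmo1 read lower by a smaller amount, also without passing. Lhx9, Lmx1b, Lmo4 and Ldb1 had no separation of the groups in any probe set, and Isl1 was too dim to test. In limma, 1 of the 14 tested member probe sets passed a Benjamini-Hochberg adjusted p of 0.05, Lmo2, which was lower. Over the whole array 0.207% of probe sets passed in either direction, 56 of 27022, and 0.0925% passed as lower in Hox13dKO. The median log2 difference, Hox13dKO minus wild type, was -0.08 over the 14 member probe sets and -0.01 over all 27022.

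The authors' scaling set the same trimmed mean on each array, 500.003 signal units. The median signal still differed by replicate number, at 66.1 and 65.8 units on the arrays of replicate 1 (Hox13dKO, then wild type) and 81.2 and 85.7 on those of replicate 2. Across probe sets, which are not independent, Pearson's r of the log2 signals was 0.962 for the pair of Hox13dKO arrays, 0.958 for the wild-type pair, and from 0.951 to 0.962 for pairs of unlike genotype. Both Hox13dKO arrays were below both wild-type arrays for all 5 probe sets of the 4 targeted genes. By its brighter probe set Hoxd13 gave 5.79 and 9.58 in Hox13dKO against 14540 and 16116 in wild type, and Hoxd12 gave 5.23 and 33.5 against 1208 and 2171. Some signal was left for the others: Hoxa13 gave 52.4 and 58.0 against 842 and 1463, and Hoxd11 gave 348 and 454 against 1831 and 1745. Where their probes lie relative to the altered sequence is not known here, so these values do not show absence of the transcript. All 6 limb mesenchyme markers, such as Prrx1 and Hand2, passed the filter on dim signals, and 0 passed the test. Of the 6, 5 had negative log2 differences, and the median was -0.22. The 1 with an unadjusted p under 0.05 in limma was Prrx1, which was higher in Hox13dKO. It differed by 0.48, and by 0.69 to 1.1 on its other tested probe sets.

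**Figure D1:**
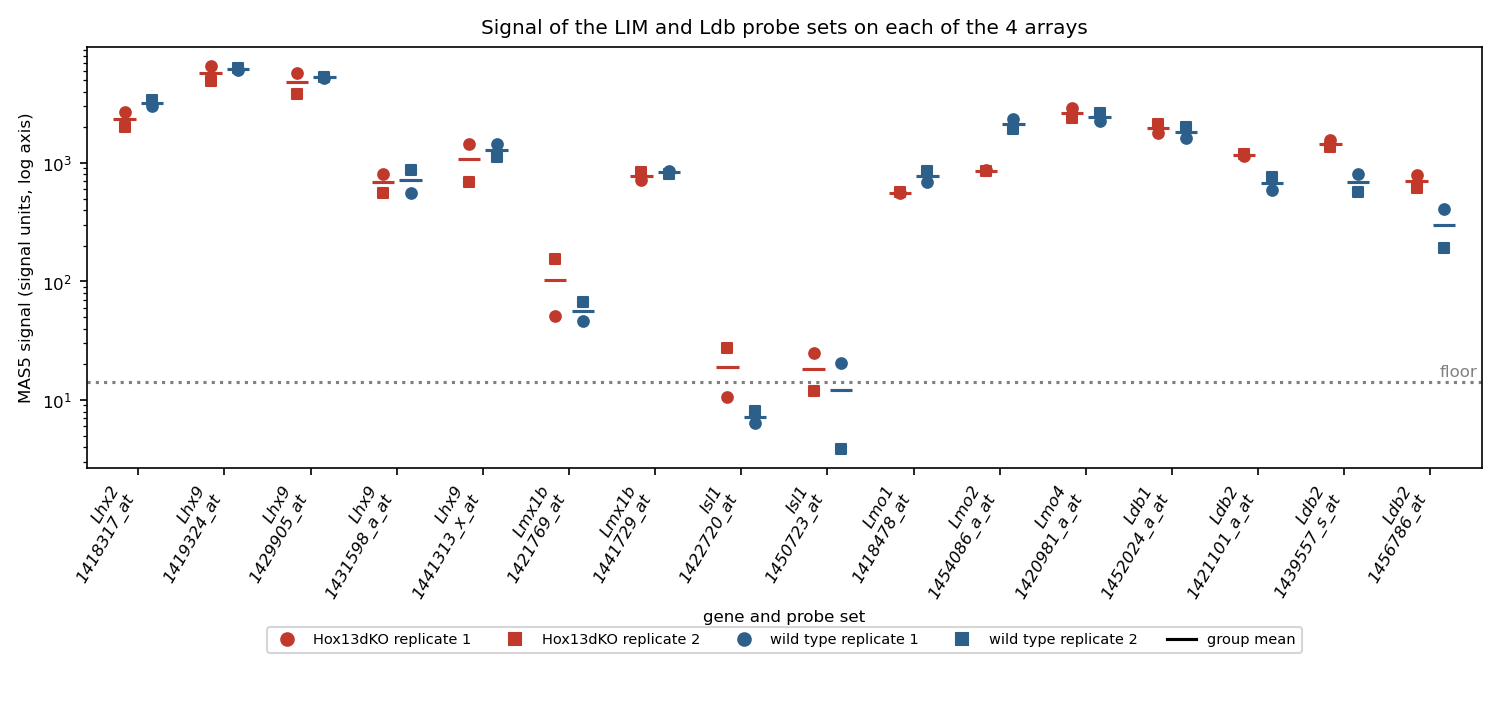
Signal of each of the 16 probe sets (horizontal axis) in signal units on a log axis, with 1 point per array and a bar at the mean of the 2 arrays of a group. The dotted line is the floor of 14.1 units. The groups are apart for Lmo2, Lhx2, Lmo1 and all 3 Ldb2 probe sets, and also for Isl1 1422720_at, whose points, like those of the other Isl1 probe set, lie around the floor.

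Lmo2 encodes a LIM-only protein best known as a bridge in blood and endothelial transcription complexes, and its transcript is also found in limb bud mesenchyme. Its probe set, 1454086_a_at, gave signals of 864 and 852 in the Hox13dKO samples and of 2368 and 1923 in the wild-type samples. The Hox13dKO arrays were close to each other and both lay far below both wild-type arrays. The means were 858 ± 8.57 and 2145 ± 314 (SD, n = 2 each), a log2 difference of -1.31 ± 0.16 (SE), or 2.49-fold lower with a 95% interval of 1.92 to 3.22. The adjusted p from limma was 0.0343, and Lmo2 stood at rank 29 of 27022 by p and at rank 370 from the lowest log2 difference. Lmo2 has only this probe set, so no second one bears on it. Dropping a mutant array left the size nearly unchanged, at -1.32 (replicate 1 dropped) or -1.30 (replicate 2 dropped). Dropping a control array moved the log2 difference to -1.16 (replicate 1 dropped) or -1.46 (replicate 2 dropped). Each such fit has a lone array in a group, so its p-value is left out and the call is not judged from it. With all arrays kept, the call was lost after centring each array on its median (adjusted p = 0.0727 in limma). It was also lost with dim probe sets kept in the test (0.321) and with a variance prior that ignores signal level (0.591).

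The blood and endothelial markers, genes of the cells where Lmo2 is best known, were not lower as groups. All 6 endothelial markers (such as Kdr, Cdh5 and Pecam1) had positive log2 differences, with a median of 0.34 and 0 past limma's threshold (2 at an unadjusted p of 0.05). Their summed signal was 2621 and 3372 in Hox13dKO against 2304 and 2355 in wild type. Of 5 measured blood markers, 4 had positive differences (median 0.12, 0 past the threshold, 2 at an unadjusted p of 0.05). Those 2 were Alas2 and Klf1, both higher (1.13 and 0.85). The sums were 57184 and 69119 against 50957 and 65011. Most of that signal came from the globin genes Hba-x and Hbb-y, which differed by 0.09 and 0.12. Tal1 and Lyl1, basic helix-loop-helix partners of Lmo2 in blood, differed by 0.55 ± 0.27 and 0.09 ± 0.33 (SE), and Gata2, a zinc finger partner, by -0.78 ± 0.36, none past the threshold. By its other probe set Gata2 was at -0.90. In these bulk samples fewer cells of a type and less RNA per cell cannot be told apart.

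Markers of nerve and glia mostly read lower in Hox13dKO. Of 6 measured, 5 had negative log2 differences, and Sox10 went the other way (0.18, and 1.07 by another probe set). The median of the 6 was -0.81 and 0 passed in limma (3 at an unadjusted p of 0.05, against 6.26% over the array). Their summed signal over 7 genes was 498 and 807 in Hox13dKO against 1137 and 1311 in wild type. The part of nerve tissue in the lower signals of Lmo2, Lmo1 and Lhx2 was not tested.

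Lmo1, a LIM-only gene of the developing nervous system, read slightly lower in Hox13dKO. Its single probe set, 1418478_at, gave 560 and 565 in the mutant samples and 691 and 859 in the controls. The groups did not overlap, but the wild-type arrays differed from each other by more than the gap between the groups. The log2 difference was -0.45 ± 0.19 (SE; adjusted p = 0.771 in limma), with a 95% interval of -0.89 to -0.01. It ran from -0.61 to -0.30 when 1 array was left out.

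Lmo4, a widely expressed LIM-only gene, had overlapping groups. Its probe set 1420981_a_at read 2912 and 2398 in Hox13dKO against 2258 and 2664 in wild type. The log2 difference was 0.11 ± 0.16 (SE; adjusted p = 0.968 in limma), with a 95% interval of -0.26 to 0.47, a range that does not reach the 2.49-fold drop fitted for Lmo2. Whether the differences of Lmo2 and Lmo4 themselves differ was not tested.

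The start-site window of Lmo1 is shown because it holds a core letter string of LIM homeodomain proteins, TAATTA. RefSeq windows of 300 bases (GRCm38.p6, 250 bases before the start site and 50 after) were in hand for 7 of the 9 genes, in 13 windows, and not for Lmo2 or Ldb2. The string, which reads the same on both strands, was in 5.29% of all 32851 windows and in both overlapping windows of Lmo1, at a single shared place. It was in no window of the other 6 genes. The match began 186 bases upstream of one annotated start site of Lmo1 and 244 bases upstream of the other. The stretch chr7:109175358-109175423, minus strand, is given 5′ to 3′ with the match in capitals.
Lmo1: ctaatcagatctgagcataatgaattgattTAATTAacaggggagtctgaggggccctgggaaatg
A match is only a description of the letters, and no binding was measured here.

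Ldb2, an adaptor of LIM proteins related to Ldb1, read higher in Hox13dKO by all 3 of its probe sets, and none passed the test. By probe set 1439557_s_at, the brightest, the Hox13dKO arrays read 1554 and 1361 and the wild-type arrays 801 and 567, a log2 difference of 1.11 ± 0.20 (SE; adjusted p = 0.119 in limma). By probe set 1421101_a_at they were 1144 and 1198 against 591 and 765, a difference of 0.80 ± 0.18 (adjusted p = 0.248). By probe set 1456786_at they were 785 and 617 against 408 and 192, a difference of 1.32 ± 0.35 (adjusted p = 0.348). In every one of these both Hox13dKO arrays were above both wild-type arrays. The 95% intervals on the fold ran from 1.30 to 2.34 for 1421101_a_at, from 1.56 to 2.99 for 1439557_s_at and from 1.43 to 4.34 for 1456786_at. The probe sets read the same 4 RNA samples, so their common direction is not a replicate. The _s_at suffix marks a probe set that can bind several transcripts.

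The Ldb2 values depended on the wild-type arrays. Without wild type replicate 1 the log2 differences were 1.36 for 1439557_s_at, 0.61 for 1421101_a_at and 1.86 for 1456786_at. Without wild type replicate 2 they were 0.86, 0.99 and 0.77 in the same order. Leaving out either Hox13dKO array gave between 0.77 and 1.49. These fits leave 1 array in a group, so no p-value is given for them. Muscle markers, like the endothelial markers above and like Ldb2, had mostly positive differences. Of 6 muscle markers, 5 had positive differences, and the median of 1.59 was the largest of the lists. In limma 4 of the 6 had an unadjusted p under 0.05, against 6.26% over the array. Of these Actc1 was higher past the adjusted threshold, against 0.207% of probe sets past it over the array. The summed signal of the muscle markers was 1513 and 3396 in the mutant samples against 397 and 430 in the controls. Markers of surface ectoderm (median 0.19, summed signal from 7411 to 9794 over the 4 arrays) and of macrophages (median 0.38, from 792 to 962) had 0 members past the threshold, and 1 in each at an unadjusted p of 0.05. The part of any of these cell types in the Ldb2 signal was not tested.

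Ldb1, the widely expressed adaptor, had overlapping groups. Its probe set 1452024_a_at read 1803 and 2123 in Hox13dKO against 1629 and 2015 in wild type. The log2 difference was 0.11 ± 0.17 (SE; adjusted p = 0.969 in limma), with a 95% interval of -0.27 to 0.49. The interval leaves room for a change of up to 1.41-fold upward.

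**Figure D2:**
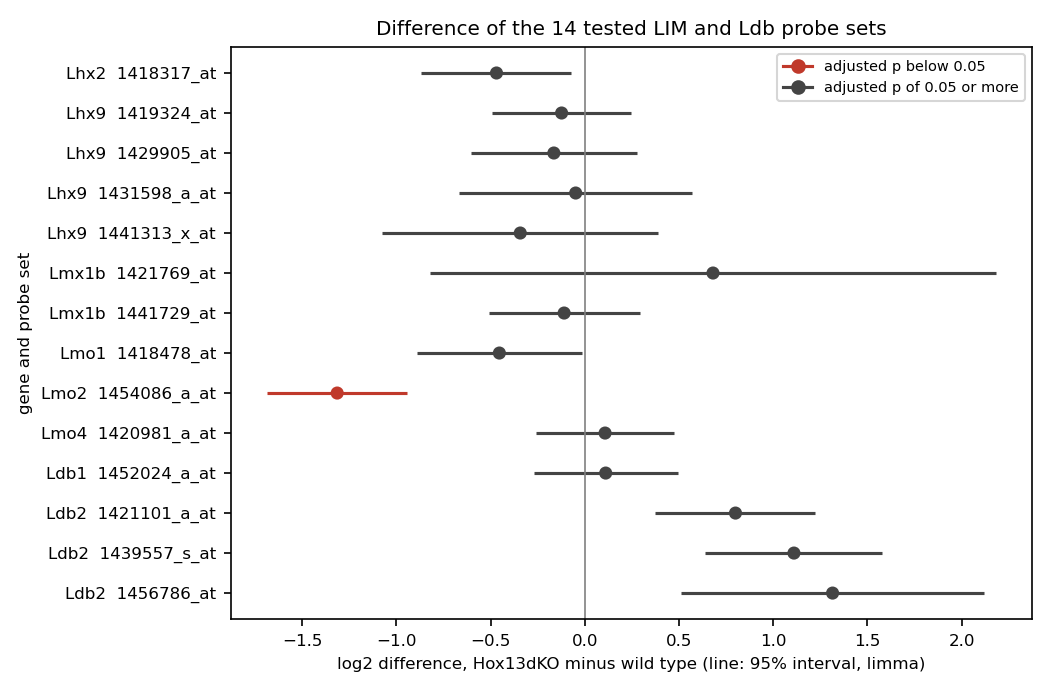
Log2 difference, Hox13dKO minus wild type, for the 14 tested probe sets (vertical axis) with the 95% interval from limma as a line. Lmo2, in red, is the probe set past an adjusted p of 0.05; the intervals of Ldb2, Lhx2 and Lmo1 leave out 0 without adjustment, and those of Lhx9, Lmx1b, Lmo4 and Ldb1 span it.

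Lhx2, a LIM homeobox gene of the distal limb mesenchyme, read lower in Hox13dKO. Its probe set, 1418317_at, gave 2706 and 2000 in the mutant samples and 3043 and 3404 in the controls. The groups did not overlap, though Hox13dKO replicate 1 was nearer to the wild-type arrays than to Hox13dKO replicate 2. The log2 difference was -0.47 ± 0.17 (SE; adjusted p = 0.674 in limma), with a 95% interval of -0.87 to -0.07. Leaving out Hox13dKO replicate 1 gave -0.69, and leaving out Hox13dKO replicate 2 gave -0.25.

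Lhx9, the closest relative of Lhx2 and its partner in limb outgrowth, did not separate by group. Its brightest probe set, 1419324_at, read 6554 and 4925 in Hox13dKO against 6086 and 6289 in wild type, so the wild-type values lay between those of the mutants. By 1429905_at the signals were 5768 and 3842 against 5226 and 5325, by 1441313_x_at 1452 and 691 against 1434 and 1125, and by 1431598_a_at 806 and 563 against 557 and 872. On each of the 4 probe sets Hox13dKO replicate 1 was above Hox13dKO replicate 2. Log2 differences ran from -0.34 to -0.05, with adjusted p from 0.939 to 0.987 in limma, and all 4 turned positive without Hox13dKO replicate 2. The 95% interval of 1419324_at, -0.49 to 0.24, was the narrowest of the 4.

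The Lhx9 window is shown because it was the only one of the 13 with AATAAA, a core string that posterior Hox proteins favour. That string or its reverse complement TTTATT was in 19.6% of all windows. In Lhx9 it began 105 bases upstream of the start site, in chr1:138842514-138842579 on the minus strand, given 5′ to 3′ with the match in capitals.
Lhx9: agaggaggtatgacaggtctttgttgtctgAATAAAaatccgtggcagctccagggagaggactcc
A share of 1 in 13 is not above that of all windows, and Lhx9 itself did not separate by group.

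Lmx1b, which gives the dorsal limb its identity, did not differ by its bright probe set. By 1441729_at the mutant samples read 714 and 831 and the controls 858 and 804, a log2 difference of -0.11 ± 0.17 (SE; adjusted p = 0.972 in limma; 95% interval -0.51 to 0.29). The other probe set, 1421769_at, was dim, at 51.4 and 156 against 46.3 and 67.4, and differed by 0.68 ± 0.65 (adjusted p = 0.942). Its sign rested on 1 array: without Hox13dKO replicate 2 the difference was -0.12. Wnt7a, the dorsal ectodermal signal that turns on Lmx1b, read 133 and 176 against 228 and 245 (-0.62 ± 0.31, adjusted p = 0.861 in limma). By its other tested probe set Wnt7a differed by -0.985. En1, the ventral ectodermal factor that keeps Wnt7a off, read 60.5 and 53.0 against 101 and 90.5 (-0.75 ± 0.49, adjusted p = 0.907). By their brightest probe sets both were lower on both Hox13dKO arrays, and neither passed.

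Isl1, the LIM homeobox gene of the early hindlimb field and of sensory and motor neurons, gave no measurable difference. By 1422720_at it read 10.6 and 27.6 in Hox13dKO against 6.35 and 8.09 in wild type, and by 1450723_at 24.8 and 11.8 against 20.5 and 3.84. Of these 8 values 5 lay below the floor of 14.1 units, and neither probe set entered the test, although by 1422720_at the groups did not overlap. No fold is given.

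Counted over the tested member probe sets, 6 of 14 had groups that did not overlap, 3 lower (Lhx2, Lmo1, Lmo2) and 3 higher (all of Ldb2). Over all 27022 probe sets 34.6% did not overlap, so that count alone sets the members little apart from the array. At an unadjusted p of 0.05 the same 6 of 14 passed, or 42.9%, and 6.26% did over the array. Since 3 of the 6 are probe sets of Ldb2, both counts are 4 of the 8 measured genes by the brightest probe set of each. Over all 13071 genes so measured, 37.2% did not overlap and 7.25% had an unadjusted p under 0.05. Since the members were listed with earlier results of these data known, these shares are no test of the family.

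**Figure D3:**
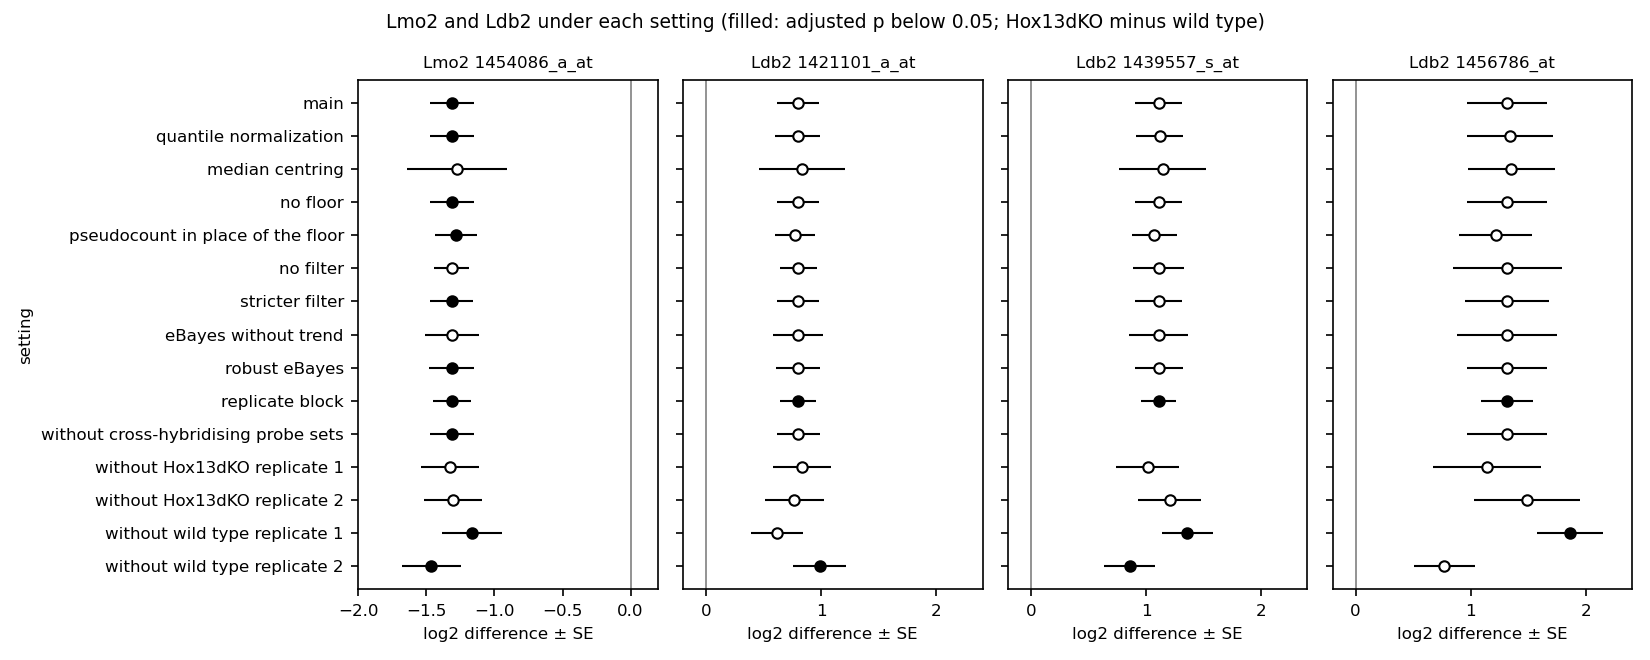
Log2 difference with its SE (horizontal axis) for Lmo2 and the 3 Ldb2 probe sets under each processing setting (vertical axis), filled where the adjusted p is below 0.05. Lmo2 stays between -1.46 and -1.16 and the Ldb2 probe sets between 0.61 and 1.86, while the calls come and go. In settings that leave out 1 array, the lone array is assumed to vary like the other group. The probe set 1439557_s_at has no value in the setting that leaves out cross-hybridising probe sets.

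Other genes of the LIM family were mostly dim. Of 9 further LIM homeobox and LIM-only genes, 4 reached the signal needed for the test (Lhx3, Lhx6, Isl2 and Lmx1a) and 0 passed in limma (1 at an unadjusted p of 0.05), with a median log2 difference of 0.10. The lowest p among them was that of Lmx1a, the paralogue of Lmx1b, at 107 and 125 in Hox13dKO against 40.1 and 63.1 in wild type (1.20 ± 0.51, adjusted p = 0.782). Among 9 measured partners of LIM complexes, 0 passed (1 at an unadjusted p of 0.05) and the median was 0.05. Ssbp4, of the single-stranded DNA binding family that stabilises Ldb adaptors, had the lowest p, with 1350 and 1438 against 964 and 1012 (0.50 ± 0.15, adjusted p = 0.498), and its relatives Ssbp2 and Ssbp3 each differed by 0.05 by their brightest probe sets. Other Ssbp2 probe sets ran from -0.09 to 0.82 and that of Ssbp3 was at 0.51. Of 10 signals and readouts of limb outgrowth, the programme in which Lhx2, Lhx9 and Lmx1b take part, 0 passed in limma. An unadjusted p of 0.05 was passed by 5 of the 10, against 6.26% over the array. Differences were positive for 4 and negative for 6, and the median was -0.27. The 4 genes with the lowest p went both ways by their brightest probe sets. Fgf4 and Fgf8 were higher (1.79 ± 0.43 and 0.83 ± 0.22, SE), and Gli1 and Shh were lower (-0.90 ± 0.22 and -1.32 ± 0.42). By its other probe set Shh was at -0.455, and other tested Fgf4 probe sets ran from 0.72 to 2.14. Wild type replicate 1 had the highest summed signal of that list, 13198, against 9888 in wild type replicate 2 and 9111 and 9155 in Hox13dKO.

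**Figure D4:**
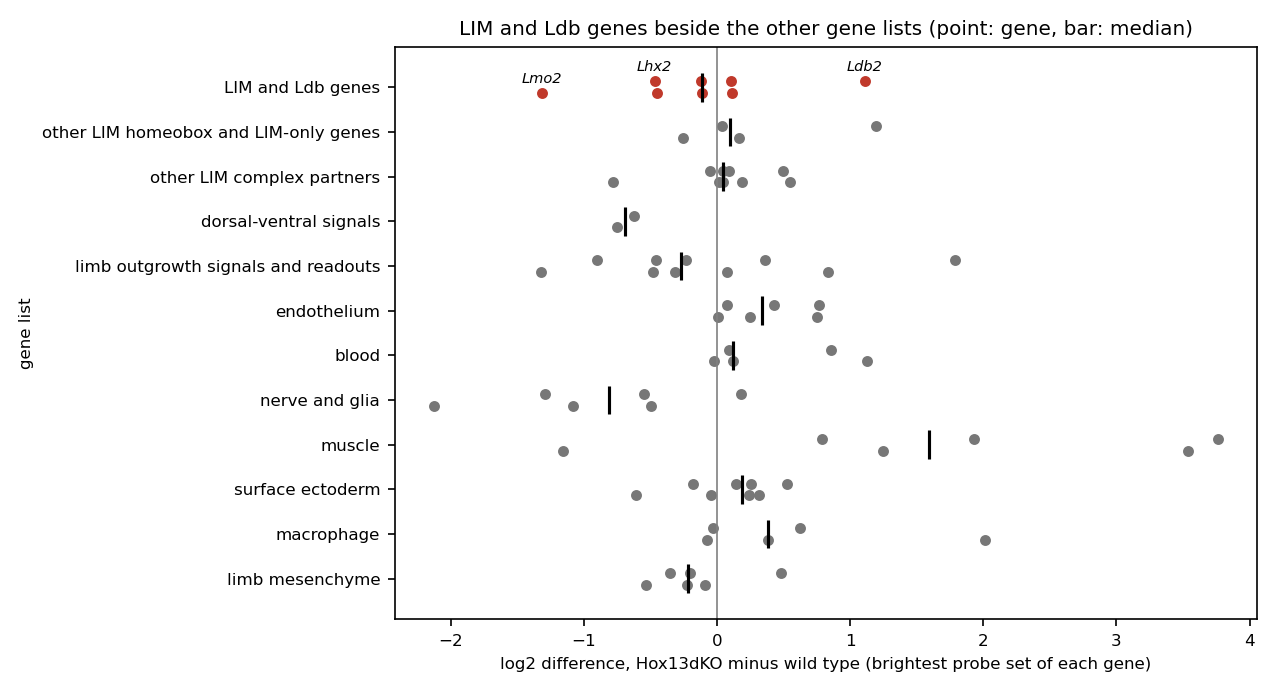
Log2 difference, Hox13dKO minus wild type, of each measured gene by its brightest probe set (points, horizontal axis) in the LIM and Ldb genes and in the other gene lists (vertical axis), with a bar at each median. Lmo2 and Ldb2 lie at -1.31 and 1.11, while the median of the other LIM complex partners is 0.05.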

How the data were processed

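Total RNA of 4 autopod samples was read on Affymetrix arrays. The authors deposited an intensity per probe set on a linear scale, made with MAS5, per the submitters' processing notes (version not stated). Detection calls were not used here, so background is not set per probe set, and depth does not apply: the number of arrays, 2 a group, limits the precision. A floor was set at the 20th percentile of all values, 14.1 units, before taking log2. Of the 45101 probe sets, 64 controls were left out, and the 27022 with a mean log2 signal at or above the 40th percentile (39.6 units) were tested with limma 3.58.1 in R 4.3.3 (lmFit, eBayes with intensity trend, two-sided, Benjamini-Hochberg over all of them, threshold 0.05). The fit had 2 residual and 6.05 prior degrees of freedom. The interval is limma's 95% interval, unadjusted. Groups follow the titles. All member probe sets are reported. Of other lists, the text gives counts and up to 4 genes with the lowest p. Exceptions are Lyl1, Ssbp2, Ssbp3 and Sox10, named after their values were seen. The brightest probe set stands for a gene in list counts. Members and lists were chosen with earlier results of these data known. The fit was also run on simulated arrays drawn from its own fitted spread, without array or replicate effects. That run cannot show how such effects bear on the calls here. Alternatives changed normalization, floor, filter, variance prior, replicate block, probe sets, arrays and threshold. Figures used matplotlib 3.10.9.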

Additional observations from a re-analysis of the deposited data

How the results depend on the processing

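Lmo2 was lower under all 15 alternatives, with log2 differences from -1.46 to -1.16. Changes of threshold, filter or variance prior leave the difference at -1.31, so the shared direction there was fixed in advance. The call was kept after quantile normalization (adjusted p = 0.0271 in limma), with no floor (0.0376) and with a stricter filter (0.0368). The count of member probe sets past the threshold, 1 in the reported fit, was 0 after median centring, 0 with no filter and 0 without the intensity trend, where limma called 214, 0 and 1 probe sets on the whole array and 4 member probe sets had an unadjusted p under 0.05 each time. When 1 array is left out, the lone array of its group is assumed to vary like the other group, so no count is given for those fits. With the replicate block the count was 4, Lmo2 and all 3 of Ldb2 (adjusted p = 0.00335 to 0.0297), and 418 on the whole array; the titles' numbers are not known to pair samples, and same-numbered samples deviated with r = 0.198. When 1 array was left out, log2 differences spanned 0 for Lhx9 (1419324_at -0.33 to 0.083, 1429905_at -0.46 to 0.13, 1431598_a_at -0.37 to 0.27, 1441313_x_at -0.88 to 0.19), Lmx1b (1421769_at -0.12 to 1.48, 1441729_at -0.22 to 0.00041), Lmo4 (-0.032 to 0.25) and Ldb1 (-0.043 to 0.26). For the other gene lists the count was 1 in the reported fit, 5 after median centring and 6 with the replicate block. It was 0 with no filter and 0 without trend (11 and 16 at an unadjusted p under 0.05 in limma). Why these counts move was not tested.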

Other observations

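By the RefSeq gene table (GRCm38.p6), Lmo2, Lhx2 and Lmx1b lie on chromosome 2, as does the deleted HoxD segment. Leaving out the targeted genes, 10 of 1917 tested probe sets on chromosome 2 passed the adjusted threshold, 0.522%, against 39 of 21548 on other chromosomes, 0.181%. Without the other HoxD genes and the neighbours Lnpk, Mtx2 and Evx2, a choice made after seeing the data, 7 of 1907 passed, 0.367%, Lmo2 among them. What lies behind this difference was not tested.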
